A study of Homo sapiens with 6 samples.

Results

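The Kruppel-like factors (KLF) described here are 10 genes, KLF2, KLF3, KLF4, KLF5, KLF6, KLF7, KLF9, KLF10, KLF11 and KLF13, taken by name from the 23024 genes with a deposited level. All 10 were found, among 17 rows named KLF and a number. RNA was sequenced from 5637 cells, an established human bladder carcinoma line, in 3 sh-RAD51C libraries (genotype given as RAD51C knockdown, by a short hairpin RNA) and 3 libraries named NC (genotype given as WT), a name that the labels leave unexplained. Both groups came from transfected cells, and the labels give neither the hairpin sequence nor whether the libraries of a group were separate cultures. The p-values are thus relative to a library-to-library spread that could be technical. Levels are FPKM, reads scaled to the length of the gene and the depth of the library, so different genes can be set side by side. Because these are bulk samples, fewer cells expressing a gene and less RNA per cell cannot be told apart.

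KLF proteins are transcription factors whose C-terminal zinc fingers read GC-rich and CACCC sequences, and they differ in the rest of the protein, which recruits activators or repressors. In stratified epithelia KLF5 is known from the proliferating basal layer and KLF4 from the differentiating layers above it. KLF6 is an early response gene, KLF10 and KLF11 are induced by TGF-beta, KLF9 responds to glucocorticoid and thyroid hormones, and KLF3 represses through the corepressor CtBP. KLF2 is best known from endothelium and resting T cells, KLF7 from neurons and KLF13 from T cells.

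The labels were checked first on RAD51C, a gene of homologous recombination. RAD51C measured 3.51, 3.09 and 2.95 FPKM in sh-RAD51C libraries 1, 2 and 3, against 14.7, 13.2 and 13.6 FPKM in NC libraries 1, 2 and 3, and the groups did not overlap. Its log2 fold change was -1.83 ± 0.064 (SE; limma adjusted p = 7.16e-09), and 3 libraries against 3 allow no p below the 0.1 that it reached in a two-sided exact permutation test. Inferred depth was 37104318 to 38079825 reads per sh-RAD51C library and 36068282 to 37560184 reads per NC library. The epithelial markers KRT5, KRT7, EPCAM and CDH1 stood at 31.7 FPKM or more in all 6 libraries, whereas the uroplakins UPK1A, UPK2 and UPK3A, which mark differentiated urothelium, stayed at or under 0.228 FPKM. Of 9 fibroblast markers measured, 3 were tested: FBLN1 (43.4 to 45.8 FPKM in sh-RAD51C and 55.7 to 56.3 FPKM in NC) and COL1A1 (6.4 to 7.16 and 9.5 to 10.3 FPKM) fell, and THY1 (5.47 to 5.57 and 4.41 to 4.85 FPKM) rose. The list summed to between 56.3 and 57.9 FPKM in sh-RAD51C and between 70.5 and 70.9 FPKM in NC, and the other 6 markers, COL1A2 and PDGFRA among them, stayed at or under 0.169 FPKM. The part of these genes in the KLF differences was not tested. The leukocyte gene PTPRC was at or under 0.0122 FPKM in all 6 libraries.

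The KLF genes did not move in one direction. KLF5, KLF13, KLF9, KLF3 and KLF11 fell in sh-RAD51C cells, KLF6, KLF10 and KLF4 rose, and KLF7 was not called. Of the 10 members, 9 averaged at least 1 FPKM over the 6 libraries and were tested, and KLF2 did not. A total of 8 of these 9 were called (limma, Benjamini-Hochberg adjusted p under 0.05), where 49.4% of all 11152 genes tested were called. The 3 members that rose stand beside 23.2% of genes called higher, and the 5 that fell beside 26.2% called lower. In 8 of the 9 the groups did not overlap, against 58.4% of all genes tested. The median size of change, with its sign left out, was 0.81 on the log2(FPKM + 1) scale for the 9 KLF genes and 0.15 for all genes tested, and the signed medians were -0.28 and -0.01.

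**Figure D1:**
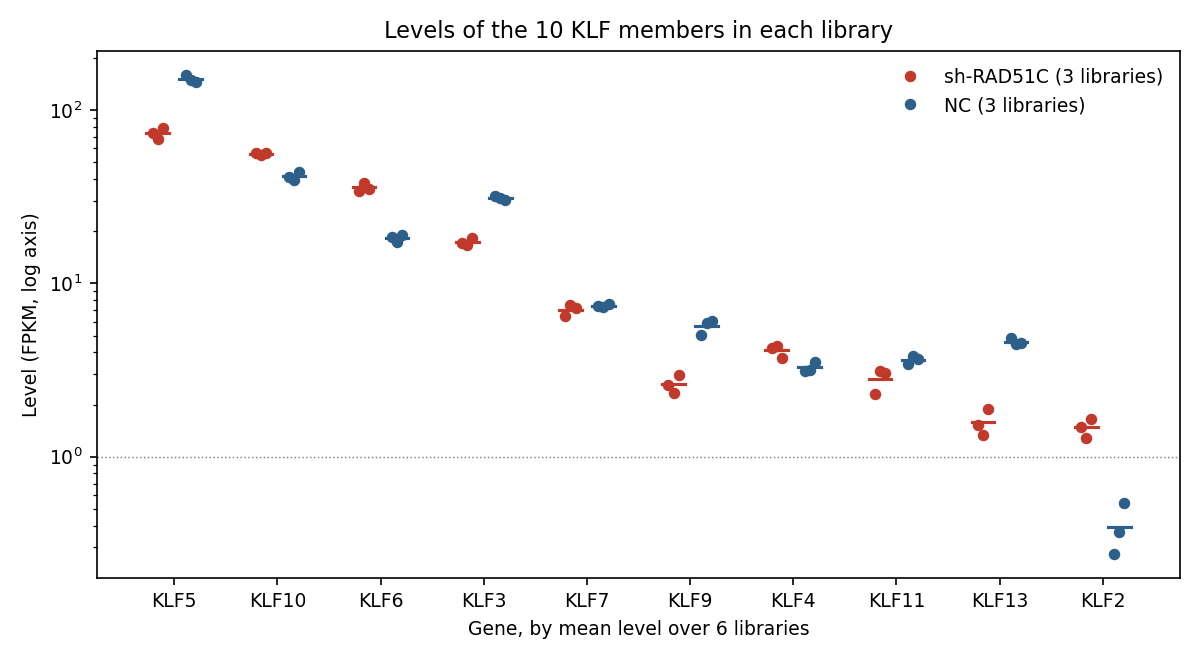
Level of each KLF member in FPKM on a log axis, with 1 point per library (sh-RAD51C left in red, NC right in blue), a bar at the mean of 3 libraries and a dotted line at 1 FPKM. KLF5 is the highest member in both groups, the groups overlap for KLF7, and KLF2 lies below 1 FPKM in all 3 NC libraries.

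KLF5 (ENSG00000102554.13), an activator that promotes growth of basal epithelial cells, was the most abundant member in both groups. It measured 73.3, 67.7 and 78.8 FPKM in the sh-RAD51C libraries, against 159.8, 148.8 and 144.6 FPKM in the NC libraries. Every sh-RAD51C library lay far below the lowest NC library, with 8876 to 10571 inferred reads against 19187 to 20356. The mean was 73.3 ± 5.51 FPKM in sh-RAD51C and 151.1 ± 7.83 FPKM in NC (SD, n = 3 each), 48.5% of the NC mean. The log2 fold change was -1.04 ± 0.055 (SE; limma adjusted p = 1.06e-07), and 1.44% of genes tested changed by more. The basal keratin gene KRT5, a marker of the same basal layer, measured 302.8, 297.4 and 302.6 FPKM in sh-RAD51C and 694.1, 682.0 and 682.6 FPKM in NC; of the 13 tested urothelial markers 6 rose and 6 fell, and their summed level ran from 2847.8 to 2949.6 FPKM in sh-RAD51C and from 3321.5 to 3411.5 FPKM in NC. Their part in the KLF5 difference was not tested.

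KLF13 (ENSG00000169926.10), a factor first studied as a regulator of the chemokine gene CCL5 in T cells, had the largest fall of the tested members. Its levels were 1.53, 1.34 and 1.88 FPKM in sh-RAD51C, against 4.81, 4.44 and 4.54 FPKM in NC, well apart. It stood at 34.5% of the NC mean (log2 fold change -1.12 ± 0.08 SE, limma adjusted p = 9.57e-07). KLF9 (ENSG00000119138.4), a close relative of KLF13 that is induced by steroid and thyroid hormones, moved the same way. It measured 2.58, 2.34 and 2.97 FPKM in sh-RAD51C and 5.06, 5.87 and 6.05 FPKM in NC, which puts it at 46.5% of the NC mean (log2 fold change -0.88 ± 0.08 SE, limma adjusted p = 6.11e-06). The sh-RAD51C levels rest on 354 to 511 reads for KLF13 and 451 to 588 reads for KLF9, far fewer than for KLF5.

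KLF3 (ENSG00000109787.12), the CtBP-recruiting repressor, was the third of the abundant members in NC and fell in sh-RAD51C. Single libraries held 17.2, 16.6 and 18.2 FPKM in sh-RAD51C and 31.9, 31.2 and 30.3 FPKM in NC, with little spread inside either group. The log2 fold change was -0.81 ± 0.044 (SE; limma adjusted p = 1.29e-07), at 55.7% of the NC mean. KLF11 (ENSG00000172059.10), a TGF-beta-inducible relative of KLF10, had the smallest fall of the called members. It measured 2.31, 3.11 and 3.05 FPKM in sh-RAD51C and 3.42, 3.79 and 3.68 FPKM in NC, so the closest libraries of the groups were a short way apart and sh-RAD51C 1 was the lowest. The difference (log2 fold change -0.28 ± 0.085 SE, limma adjusted p = 0.0172) lost its call without NC replicate 2 (limma adjusted p = 0.0617), with quantile normalization (0.0526) and without the filter on low values (0.0959), within a range of 0.00633 to 0.0959 over the alternatives. Its size also rested on sh-RAD51C 1, without which the log2 fold change was -0.18 (limma adjusted p = 0.0375).

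KLF6 (ENSG00000067082.14), an early response gene also induced by tissue injury, rose the most of the tested members. It measured 34.3, 37.8 and 35.2 FPKM in sh-RAD51C, against 18.4, 17.3 and 19 FPKM in NC. The lowest sh-RAD51C library was far above the highest NC library, with 5988 to 6432 reads against 2978 to 3271. The level was 1.96-fold higher by means (log2 fold change 0.93 ± 0.048 SE, limma adjusted p = 8.92e-08), and 1.85% of genes tested changed by more. KLF10 (ENSG00000155090.14), which acts early in TGF-beta signalling, was the second most abundant member in both groups. Its levels were 56.2, 55.3 and 56.5 FPKM in sh-RAD51C and 41.3, 39.7 and 43.9 FPKM in NC, tightly grouped in sh-RAD51C and apart from NC. It rose 1.35-fold by means (log2 fold change 0.42 ± 0.041 SE, limma adjusted p = 1.02e-05).

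KLF4 (ENSG00000136826.14), the differentiation and reprogramming factor, rose by less. It measured 4.23, 4.34 and 3.73 FPKM in sh-RAD51C and 3.14, 3.18 and 3.52 FPKM in NC, and the nearest libraries of the groups were sh-RAD51C 3 and NC 3. The mean was 1.25-fold higher (log2 fold change 0.25 ± 0.068 SE, limma adjusted p = 0.00971). KLF7 (ENSG00000118263.14), named for its broad expression, was the member that was tested and not called. Its levels of 6.44, 7.47 and 7.18 FPKM in sh-RAD51C overlapped those of 7.36, 7.34 and 7.55 FPKM in NC. The log2 fold change was -0.07 ± 0.058 (SE; limma adjusted p = 0.343), with a 95% interval from -0.2 to 0.06.

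KLF2 (ENSG00000127528.5), which holds endothelial cells and T cells in a resting state, averaged 0.936 FPKM and so was not tested with the others. It measured 1.49, 1.29 and 1.65 FPKM in sh-RAD51C (160, 135 and 177 reads), against 0.275, 0.368 and 0.538 FPKM in NC (28, 39 and 57 reads). The groups did not overlap, and the sh-RAD51C mean was 3.75-fold higher. Fitted without the filter on low values, among 23024 genes of which 10.4% were called higher, its log2 fold change was 0.83 ± 0.091 (SE; limma adjusted p = 0.00206). Of 10 endothelial markers 1 averaged at least 1 FPKM, and their summed level ran from 1.83 to 2.52 FPKM in sh-RAD51C and from 1.88 to 2.46 FPKM in NC. Most of that sum was EGFL7, at 1.42 to 1.96 FPKM in sh-RAD51C and 1.63 to 2.05 FPKM in NC. The other 9 were at or under 0.327 FPKM in every library and did not move in one direction. CDH5 (0.191, 0.327 and 0.217 FPKM in sh-RAD51C, 0.0135, 0.0388 and 0.0194 FPKM in NC) and KDR (0.0855, 0.0323 and 0.0361, against 0.00951, 0.0183 and 0.0137 FPKM) were higher in sh-RAD51C without overlap, as KLF2 was. PECAM1 (0.0429, 0.044 and 0.0358, against 0.106, 0.0688 and 0.167 FPKM) was lower without overlap. The groups overlapped for all the rest: EGFL7, VWF, TEK, TIE1, CLDN5, ERG and ESAM. CDH5, KDR and PECAM1 were below the filter and were singled out after their values were seen. The 6 blood cell markers measured summed to between 0.377 and 1.12 FPKM in sh-RAD51C and between 1.47 and 1.86 FPKM in NC. Most of that was CD14, at 0.958, 0.377 and 0.384 FPKM in sh-RAD51C and 1.45, 1.52 and 1.75 FPKM in NC. CD14 fell and was the 1 blood marker that passed the filter, only through its NC levels. The part of the endothelial and blood markers in the KLF2 difference was not tested.

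On GRCh38 in GENCODE 29, KLF5 lies at chr13:73054976-73077542 and KLF13 at chr15:31326855-31435665 on the plus strand, and KLF6 at chr10:3775996-3785281 on the minus strand. KLF9 and KLF4 are both on chromosome 9, at chr9:70384597-70414624 and chr9:107484852-107490482 on the minus strand. KLF3, at chr4:38664196-38701042 on the plus strand, overlaps exons of the antisense gene KLF3-AS1, and KLF11, at chr2:10042849-10054836 on the plus strand, overlaps another antisense gene.

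**Figure D2:**
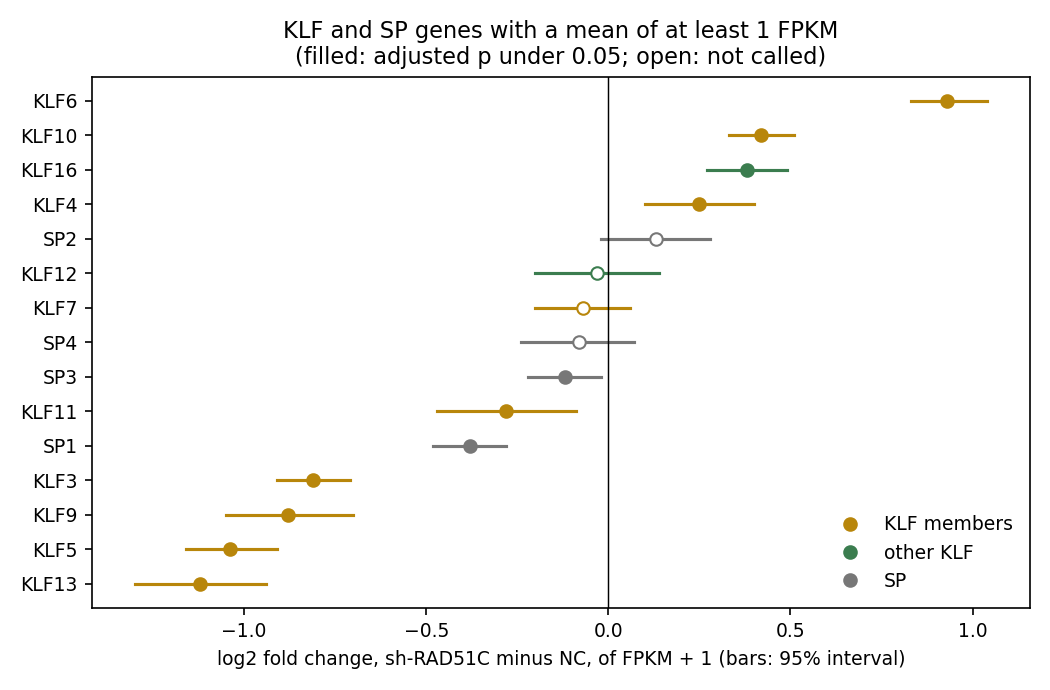
Log2 fold change of FPKM + 1 (sh-RAD51C minus NC) for the KLF and SP genes averaging at least 1 FPKM, with 95% intervals from limma; filled points passed an adjusted p of 0.05 and open points did not. KLF6, at 0.93, and KLF13, at -1.12, mark the ends, and the SP genes lie between -0.38 and 0.13.

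Ordered by level, the members changed places between the groups. In sh-RAD51C the order was KLF5, KLF10, KLF6, KLF3, KLF7, KLF4, KLF11, KLF9, KLF13 and KLF2, and the libraries overlapped between KLF11 and KLF9 and between KLF13 and KLF2. In NC it was KLF5, KLF10, KLF3, KLF6, KLF7, KLF9, KLF13, KLF11, KLF4 and KLF2, with overlap between KLF11 and KLF4. KLF3 and KLF6 exchanged places: the ratio of KLF3 to KLF6 was 0.503, 0.439 and 0.517 in the sh-RAD51C libraries and 1.73, 1.81 and 1.59 in the NC libraries. Ratios of this kind are taken within a library and do not change with its scaling. This pair, and that of KLF10 and KLF11, were chosen after their values were seen and were not tested.

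The summed level of the 10 members was 202 ± 6.33 FPKM in sh-RAD51C and 267 ± 7.34 FPKM in NC (SD, n = 3 each), and without KLF5 it was 128.7 ± 2.2 FPKM in sh-RAD51C and 115.9 ± 2.93 FPKM in NC. KLF5 made up 36.7%, 34.3% and 37.7% of the summed level in the sh-RAD51C libraries, against 58.0%, 56.8% and 54.9% in the NC libraries. KLF10 held 27.7 ± 0.633% in sh-RAD51C and 15.6 ± 0.918% in NC, and KLF6 held 17.7 ± 1.25% and 6.83 ± 0.324%. KLF5 alone thus outweighed all other members together in each NC library and in no sh-RAD51C library. The ratio of KLF4 to KLF5, the pair set against each other in epithelial differentiation, was 0.0577, 0.0641 and 0.0474 in sh-RAD51C and 0.0196, 0.0214 and 0.0244 in NC. It was 2.58-fold higher in sh-RAD51C, with no overlap, and its p in the exact permutation test, two-sided, was again 0.1, which is the minimum for this design. The ratio of KLF10 to KLF11, which share a TGF-beta response, was 24.3, 17.8 and 18.5 in sh-RAD51C and 12.1, 10.5 and 11.9 in NC.

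**Figure D3:**
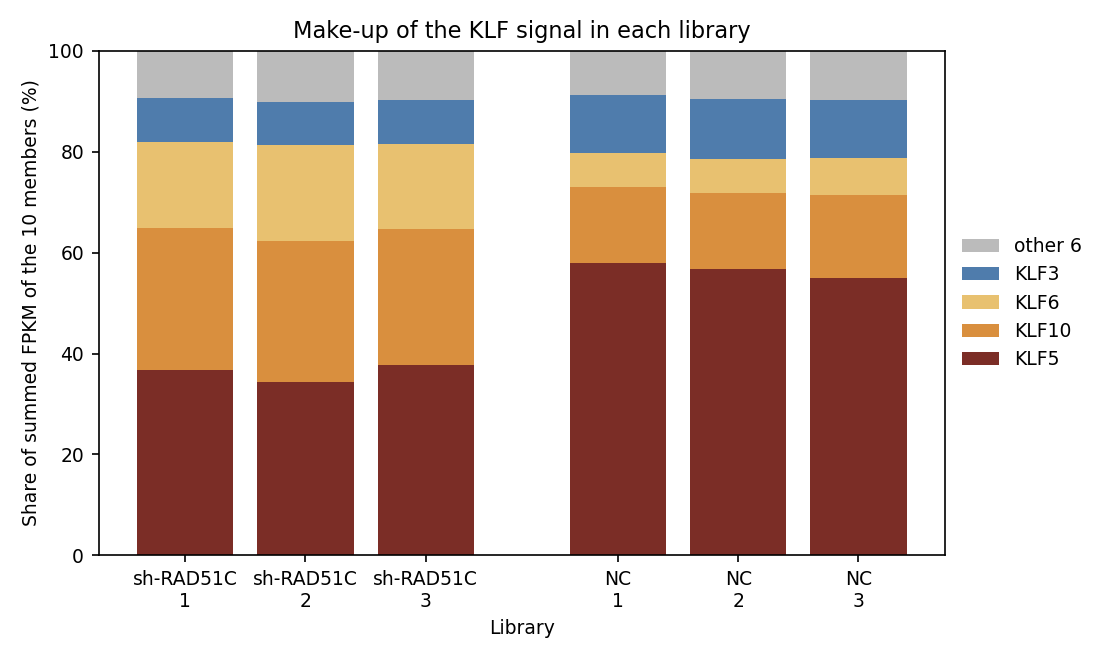
Share of the summed FPKM of the 10 KLF members held by KLF5, KLF10, KLF6, KLF3 and the other 6 in each library, as stacked bars adding to 100%. KLF5 takes 34.3% to 37.7% in the sh-RAD51C libraries and 54.9% to 58.0% in the NC libraries.

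Since these factors read GC-rich and CACCC letters, and are known to act on each other's promoters, those letters were looked for in the members' own promoters. RefSeq windows on GRCh38.p14, from 250 bases before to 50 after a start site, were found for 8 of the 10 members, all but KLF3 and KLF10. The window nearest the start of a principal GENCODE transcript was used. Its start site lay 213 bases from that start for KLF5, 274 for KLF11 and 123 for KLF4, and 3 to 66 bases for the others. The box counts of these 3 genes thus describe windows that are offset from that start. The CACCC box (CACCC) and the GC box (GGGCGG) were searched on both strands. The CACCC box is in 59.9% of the 35116 windows of that length, and the GC box in 45.0%. Printed here, 5′ to 3′ on the strand of the gene, are the windows of the members with the largest rises and falls in log2(FPKM + 1). They are KLF6 (chr10:3785160-3785459, minus strand), KLF2 (chr19:16324576-16324875, plus strand), KLF5 (chr13:73058755-73059054, plus strand) and KLF13 (chr15:31326585-31326884, plus strand). Capitals mark both boxes on either strand, and letters shared by overlapping boxes are marked once.
KLF6: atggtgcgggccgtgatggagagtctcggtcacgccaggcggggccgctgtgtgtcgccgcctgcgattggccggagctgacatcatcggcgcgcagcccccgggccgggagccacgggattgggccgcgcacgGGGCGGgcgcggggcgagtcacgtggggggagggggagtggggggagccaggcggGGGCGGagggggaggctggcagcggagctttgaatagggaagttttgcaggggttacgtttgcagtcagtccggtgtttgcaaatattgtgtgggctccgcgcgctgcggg
KLF2: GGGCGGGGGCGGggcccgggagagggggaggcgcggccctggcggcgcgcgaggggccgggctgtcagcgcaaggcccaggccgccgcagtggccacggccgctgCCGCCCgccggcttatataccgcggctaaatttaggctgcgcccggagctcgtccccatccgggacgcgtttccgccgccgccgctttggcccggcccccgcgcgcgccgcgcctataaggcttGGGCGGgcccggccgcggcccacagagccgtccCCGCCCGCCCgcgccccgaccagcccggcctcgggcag
KLF5: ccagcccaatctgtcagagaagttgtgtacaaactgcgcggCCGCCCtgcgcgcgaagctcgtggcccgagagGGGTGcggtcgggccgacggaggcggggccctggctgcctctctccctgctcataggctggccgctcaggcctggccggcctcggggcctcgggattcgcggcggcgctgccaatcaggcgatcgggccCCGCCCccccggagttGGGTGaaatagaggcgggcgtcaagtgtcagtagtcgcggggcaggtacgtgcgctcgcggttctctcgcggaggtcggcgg
KLF13: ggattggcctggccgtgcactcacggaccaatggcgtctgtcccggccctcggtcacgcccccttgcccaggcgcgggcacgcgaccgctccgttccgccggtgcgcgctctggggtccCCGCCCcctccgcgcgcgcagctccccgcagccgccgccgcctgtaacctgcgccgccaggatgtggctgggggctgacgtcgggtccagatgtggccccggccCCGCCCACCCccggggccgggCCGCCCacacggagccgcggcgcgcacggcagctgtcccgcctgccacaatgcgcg
The windows of KLF6 and KLF2, which were higher in sh-RAD51C, held 2 and 6 GC boxes and 0 CACCC boxes. Those of KLF5 and KLF13, which were lower, held 2 and 3 GC boxes and 2 and 1 CACCC boxes, 1 of them overlapping a GC box in KLF13. All of these windows were rich in G and C, at 70.7% to 80.7%, whereas the window of KLF9, which also fell, held 32.7% and neither box. The windows of KLF4, which rose, and KLF11, which fell, held 4 and 2 GC boxes and 0 CACCC boxes. That of KLF7, which was not called, held 0 GC boxes and 2 CACCC boxes. A link between box counts and the direction of change was not tested. The windows of the 8 members held no AP-1 site (TGACTCA), cAMP response element (TGACGTCA), TEAD site (GGAATG), SMAD box (GTCTAGAC) or TATA box (TATAAA), which are in 4.95%, 1.85%, 14.0%, 0.202% and 11.5% of all windows. A match is a run of letters and was not tested as a binding site.

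Other members of the family were measured beside these. KLF16, a GC box binder, rose to 17.3, 19.1 and 18.2 FPKM in sh-RAD51C, against 14.0, 13.0 and 14.3 FPKM in NC (log2 fold change 0.38 ± 0.051 SE, limma adjusted p = 0.000113). KLF12, a CtBP-binding repressor like KLF3, was at 1.82 ± 0.238 FPKM in sh-RAD51C and 1.88 ± 0.143 FPKM in NC (SD, n = 3 each) and was not called (limma adjusted p = 0.755). KLF1, KLF8, KLF14, KLF15 and KLF17 stayed under 0.41 FPKM in every library. Among the related SP factors, 4 of 9 were tested and 2 were called, both lower. Of all 11152 genes tested, 49.4% were called and 26.2% were called lower. SP1, the general GC box activator, measured 13.2, 14.3 and 13.9 FPKM in sh-RAD51C and 18.6, 18.5 and 17.6 FPKM in NC (log2 fold change -0.38 ± 0.045 SE, limma adjusted p = 4.54e-05). SP3, which binds the same box, fell by 0.12 on the log2 scale (limma adjusted p = 0.0433).

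The genes that modify KLF activity or carry signals to the KLF genes were followed with 16 lists, other KLF and SP genes included. They were compiled with earlier results of these data known and share genes. Of 169 distinct genes tested over these lists, 46 rose and 59 fell, which is 62.1% called beside 49.4% of all genes tested. The counts of single lists below stand beside 23.2% of all genes tested called higher and 26.2% called lower. No list was tested as a set.

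Corepressors through which KLF3, KLF9, KLF10, KLF11 and KLF13 act had 0 of 14 genes higher and 7 lower, at a median log2 fold change of -0.11 beside -0.01 for all genes. Among all genes tested, 23.2% were called higher, 26.2% lower and 49.4% in either direction. SIN3A, the scaffold bound by KLF9, KLF10, KLF11 and KLF13, fell to 14.2 ± 0.568 FPKM in sh-RAD51C, against 16.5 ± 0.397 FPKM in NC (SD, n = 3 each). SAP30 and SUDS3 of the same SIN3 complex fell by 0.28 and 0.16 on the log2 scale. CTBP1 and CTBP2, the CtBP genes, were not called, at -0.1 and 0.12. The coactivator list had 1 of 8 higher and 2 lower, with the acetyltransferase KAT2A at 0.3, the mediator subunit MED23 at -0.22 and the acetyltransferase EP300 at -0.21.

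Genes of protein turnover and modification had 7 of 22 higher and 3 lower (median 0.01). The ubiquitin ligase NEDD4L measured 15.1, 16 and 16.1 FPKM in sh-RAD51C, against 8.25, 8.39 and 8.24 FPKM in NC (log2 fold change 0.85 ± 0.045 SE, limma adjusted p = 1.13e-07). SMURF2, a related ligase of TGF-beta signalling, rose to 25.1 ± 1.08 FPKM in sh-RAD51C, against 14.9 ± 0.352 FPKM in NC, and the F-box gene FBXO32 to 44.7 ± 0.943 against 29.6 ± 0.87 FPKM (SD, n = 3 each). VHL, the recognition subunit of another ligase, fell by 0.46 on the log2 scale. WWP1 and FBXW7, ligases known to target KLF5, were not called, with log2 fold changes of -0.02 (95% interval -0.11 to 0.08) and -0.04 (-0.17 to 0.1).

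Among upstream signals, the kinase and MEF2 axis that induces KLF2 and KLF4 had 0 of 9 higher and 1 lower, the histone deacetylase HDAC5 that represses MEF2. HDAC5 measured 4.04, 4.36 and 4.01 FPKM in sh-RAD51C and 7.64, 8.20 and 7.66 FPKM in NC (log2 fold change -0.78 ± 0.056 SE, limma adjusted p = 9.64e-07). MAP2K5 and MAPK7, the kinases of that axis, were not called, at -0.02 and -0.06. In the TGF-beta axis of KLF10 and KLF11, 2 of 12 genes were higher and 3 lower. The ligand TGFB2 rose to 18 ± 0.966 FPKM in sh-RAD51C, against 7.79 ± 0.256 FPKM in NC, and the receptor TGFBR2 to 19.8 ± 0.982 against 9.01 ± 0.449 FPKM (SD, n = 3 each), whereas TGFBR1 and TGFB1 fell by 0.32 and 0.3 on the log2 scale. The inhibitor SMAD7, on which KLF10 and KLF11 act, was not called, at 0.11 (limma adjusted p = 0.184).

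The nuclear receptor axis linked to KLF9, which includes receptor targets and NFE2L2 beside receptor genes, had 3 of 11 higher and 6 lower (median -0.23). Of the thyroid hormone receptor genes, THRB rose by 0.4 and THRA fell by 0.23 on the log2 scale (limma adjusted p = 0.000497 and 0.00138). The retinoid receptor gene RXRA was at 32.3 ± 2.13 FPKM in sh-RAD51C and 45.7 ± 0.696 FPKM in NC, and TSC22D3, a glucocorticoid target, at 4.05 ± 0.323 and 6.82 ± 0.694 FPKM (SD, n = 3 each); both fell. PPARG rose by 0.35 and NFE2L2, which encodes NRF2, fell by 0.35 on the log2 scale. The glucocorticoid receptor gene NR3C1, at -0.15, and its target FKBP5, at 0.07, were not called (limma adjusted p = 0.0628 and 0.396). Serum response and growth factor genes had 5 of 13 higher and 2 lower, JUN at 0.87, MYC at 0.68 and ATF3 at 0.66 among those that rose and JUNB at -0.64 among those that fell. SRF and EGR1 were not called, at 0.07 and 0.04. Of the YAP and TEAD genes 4 of 8 were higher and 3 lower, with TEAD4 at 0.45, VGLL3 at 0.52, TEAD2 at -0.39 and TEAD3 at -0.42, and YAP1 not called at -0.02.

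Genes known as targets of KLF5 had 6 of 22 higher and 12 lower (median -0.14). TNFAIP2 fell to 80.3 ± 5.15 FPKM in sh-RAD51C, against 194.1 ± 18.2 FPKM in NC, and the growth factor gene PDGFA to 8.84 ± 0.625 against 16.5 ± 0.0799 FPKM (SD, n = 3 each). FGFBP1, an FGF carrier known as a KLF5 target in bladder cancer cells, measured 4.86 ± 0.299 FPKM in sh-RAD51C and 11.5 ± 1.36 FPKM in NC (log2 fold change -1.09 ± 0.075 SE, limma adjusted p = 7.61e-07). Other genes of the list rose, CCND1 by 1.97 and MYC by 0.68 on the log2 scale, and the survivin gene BIRC5 was not called (0.03). The KLF4 list had 5 of 16 higher and 9 lower (median -0.13): CCND1, which KLF4 is known to repress, was higher, and the epithelial genes KRT13, SPRR1B and KRT19 fell by 2.13, 1.73 and 0.66 on the log2(FPKM + 1) scale. KRT13 measured 0.211 ± 0.021 FPKM in sh-RAD51C and 4.33 ± 0.747 FPKM in NC, and SPRR1B 0.171 ± 0.0837 and 2.89 ± 0.451 FPKM (SD, n = 3 each). Both passed the filter only through their NC levels. LAMA3 of the same list rose by 0.52, and SFN was not called. IVL was called higher by 0.27 (limma adjusted p = 0.0403), but its groups overlapped. It passed the filter only through its sh-RAD51C mean, 1.19 FPKM against 0.832 FPKM in NC. CDKN1A, the cell cycle inhibitor named as a target of most of these factors, fell to 31.2, 26.8 and 26.9 FPKM in sh-RAD51C, against 41.1, 37.9 and 37.9 FPKM in NC (log2 fold change -0.45 ± 0.059 SE, limma adjusted p = 8.69e-05).

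The KLF6 list had 6 of 16 higher and 8 lower (median -0.11). The urokinase gene PLAU measured 195.1 ± 6.38 FPKM in sh-RAD51C and 104.5 ± 0.494 FPKM in NC (SD, n = 3 each), and TGFBR2 and CCND1 also rose, while TXNIP fell by 0.31 on the log2 scale. The KLF2 list had 6 of 11 higher and 4 lower (median 0.35). In it the coagulation gene F3, SEMA7A and the endothelin gene EDN1 rose by 0.88, 0.79 and 1.06 and the urea cycle gene ASS1 fell by 1.54. F3 and EDN1 are genes that KLF2 is known to repress in endothelium. The list for KLF3, KLF7 and KLF13 had 4 of 9 higher and 4 lower, with IL6 at 2.07, CEBPA at -1.27, L1CAM at 1 and CCNE1 at 0.48. IL6 and L1CAM passed the filter only through their sh-RAD51C levels. Their means were 6.29 and 2.74 FPKM in sh-RAD51C and 0.735 and 0.867 FPKM in NC. For KLF9, KLF10 and KLF11 it was 5 of 16 higher and 6 lower, with MYC at 0.68, EDN1 at 1.06, TXNIP at -0.31 and CDKN1A at -0.45.

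**Figure D4:**
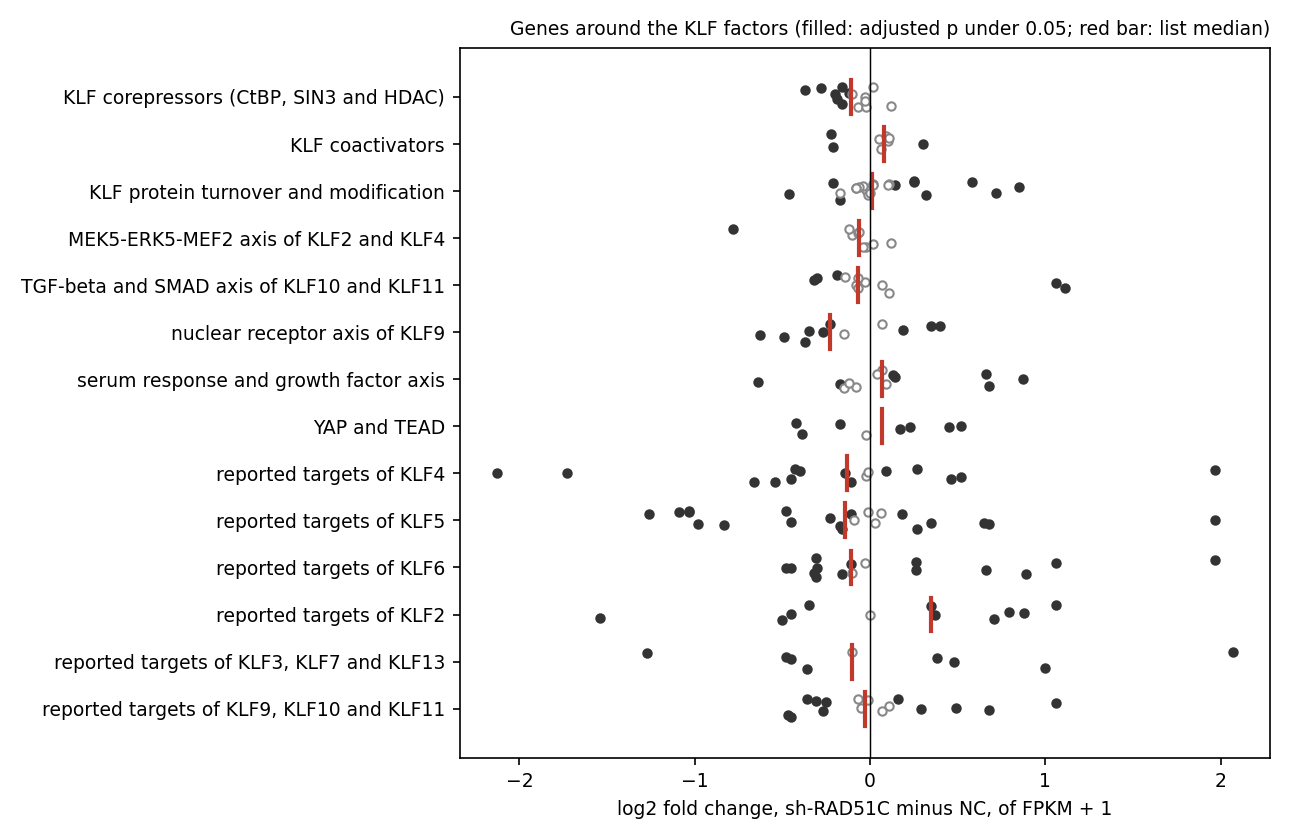
Log2 fold change of FPKM + 1 (sh-RAD51C minus NC) of each tested gene in 14 lists of KLF cofactors, upstream signals and known targets, 1 point per gene (filled, adjusted p under 0.05; open, not called), with a red bar at the list median. The medians run from -0.23 for the nuclear receptor axis to 0.35 for the KLF2 targets, and most lists have called genes on both sides of 0.

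The genes most like the 3 most abundant members over the 6 libraries were sought among 7375 others averaging at least 5 FPKM, by the root mean square difference of log2(FPKM + 1) after each gene was centred on its own mean. For KLF5 they were ARTN (0.05), A4GALT (0.055) and ELF3 (0.063). The epithelial transcription factor ELF3 measured 17.6, 14.6 and 17.1 FPKM in sh-RAD51C and 35.1, 34.0 and 30.8 FPKM in NC. For KLF10 the closest were ORC6 (0.015), DCAF13 (0.015) and ZC3H15 (0.017), and for KLF6 CAVIN1 (0.035), DCBLD2 (0.035) and EFEMP1 (0.036). With 2 groups, this measure mostly reflects the difference between groups.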

How the data were processed

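The deposited values are FPKM, calculated by the authors for 23024 genes with 1 column per library. The submitters' processing notes name hg38, DESeq2 and R 3.2.0, with no step attached to them; which aligner, counter, strandedness and annotation served is not given in the sources used here. Each of the 6 columns matched a library title, and 0 per-sample columns were left unused. FPKM values were whole multiples of a step set by gene length and library total, so reads were inferred: the total from genes of known length, then the smallest length giving whole reads in all 6 libraries within 0.001. This succeeded for 100.0% of the 11152 genes tested, and voom on these reads called 5665 genes, against 5511 on FPKM. No libraries were merged, since in every pair within a group the reads differed beyond counting error (chi-square of at least 3.69 per degree of freedom).

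Genes averaging at least 1 FPKM were tested as log2(FPKM + 1) with limma 3.58.1 in R 4.3.3, using the mean-variance trend and no covariate. P-values were adjusted by Benjamini-Hochberg over all genes kept, and a call needs an adjusted p under 0.05. This scale understates changes of low genes. The ratio of KLF4 to KLF5 and the level of RAD51C were compared with exact permutation tests, and the other ratios were not tested. The members and lists were chosen with earlier results of these data known, and targets come from general knowledge, not from these cells. The genes named are the 10 members, RAD51C, other KLF and SP genes, up to 4 called genes per list with the smallest p (1 such gene is not reported here), genes whose role bears on a member, and the 3 genes most like each of the 3 most abundant members. Gene identifiers are those of GENCODE 29, promoter windows those of RefSeq on GRCh38.p14. Exons of KLF3 and KLF11 overlap an antisense gene, and GENCODE lists processed pseudogenes of KLF2, KLF3, KLF4 and KLF7, so these values carry that uncertainty. Alternatives covered the pseudocount, filter, scaling, variance model, replicate block, threshold, voom on inferred reads and omission of each library. Python 3.11.15, numpy 2.4.6, pandas 2.3.3, scipy 1.17.1 and matplotlib 3.10.9 were used.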

Additional observations from a re-analysis of the deposited data

How the results depend on the processing

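The number of KLF members called was 7 or 8 in all alternatives tried except the filter at a mean of at least 5 FPKM, which left 5 members to test, with 4 called and 2 of them lower. Leaving out 1 library at a time gave 7 to 8 called members, with 3 higher and 4 to 5 lower; 93 to 106 called genes over the lists; and a log2 difference in the KLF4 to KLF5 ratio of 1.27 to 1.48. Without a filter on low values 8 were called, 4 higher and 4 lower, with KLF2 gained and KLF11 lost. Over all alternatives KLF11 was the member whose call was lost, and no member changed sign. KLF12, never called, changed sign with quantile normalization (0.05), without sh-RAD51C replicate 1 (0.04) and without NC replicate 3 (0.01), its values with 1 library left out running from -0.08 to 0.04. Deviations of same-numbered libraries correlated at 0.19, 0.03 and 0.09, and those of differently numbered libraries at -0.17 to 0.11. The best match of sh-RAD51C 1 and 3 was the NC library of the same number, and that of sh-RAD51C 2 was NC 3. With deviations taken within groups of 3, these values cannot decide whether the replicate numbers pair the libraries. With the replicate block 8 members were called, 3 higher and 5 lower, and 5569 genes in all. Depth limits KLF2, at 28 to 57 reads per NC library.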

Other observations

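Noncoding genes that share a KLF name were low in all 6 libraries. KLF3-AS1, antisense to KLF3, measured 0.108, 0.0554 and 0.0999 FPKM in sh-RAD51C (26, 13 and 24 reads), against 0.298, 0.303 and 0.219 FPKM in NC (68, 72 and 52 reads), with no overlap between the groups. KLF9-DT, a divergent transcript beside KLF9, measured 0.0186, 0.0381 and 0.016 FPKM in sh-RAD51C and 0.0616, 0.0458 and 0.0404 FPKM in NC. Both were below the filter and were not tested.

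S1PR1, a sphingosine phosphate receptor gene that KLF2 activates in T cells, was also below the filter. It measured 1.23, 1.5 and 1.37 FPKM in sh-RAD51C and 0.29, 0.297 and 0.362 FPKM in NC, with no overlap. SP5, a WNT-responsive relative of the KLF genes, stood at 0.5 ± 0.0467 FPKM in sh-RAD51C and 0.263 ± 0.121 FPKM in NC, and SP6, an epithelial relative, at 0.801 ± 0.107 and 1.16 ± 0.153 FPKM (SD, n = 3 each). S1PR1 was chosen after its values were seen.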
